A study of Rattus norvegicus with 19 samples.

Results

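The strain difference that the paraventricular nucleus (PVN) and the supraoptic nucleus (SON) of the hypothalamus had in common was measured by comparing all 9 arrays of spontaneously hypertensive rats (SHR) with all 10 arrays of Wistar Kyoto rats (WKY), with the nucleus as a covariate. All 19 of the 19 arrays entered. The PVN was measured on 5 arrays of each strain, and the SON on 5 arrays of WKY and 4 of SHR. The rats were untreated, 12 weeks old by the labels and male by the methods, of the inbred strains WKY/NHsd, which is normotensive, and SHR/NHsd, which is hypertensive. Pooled nuclei were hybridised to Affymetrix rat expression arrays, and since each array holds pooled nuclei the p-values measure the spread between such pools. Because each strain is a single inbred line, hypertension and any other difference between these lines cannot be told apart. Values are log2 of the deposited MAS 5.0 signals, with each array scaled to a common median, and a difference is SHR minus WKY on that scale, averaged over both nuclei. Calls were made where the adjusted p was under 0.05, with no limit on the fold change, so that changes under 2-fold (a difference of less than 1) were kept.

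Magnocellular neurones of both nuclei make vasopressin and oxytocin, package them with their processing enzymes in dense-core granules, and release them from the posterior pituitary. Parvocellular neurones of the PVN make hypophysiotropic peptides such as corticotropin-releasing hormone and send axons to autonomic centres of the brainstem and spinal cord. The SHR is a widely used model of essential hypertension, and the WKY is its usual normotensive control. The defining genes of this tissue were strongly expressed. Vasopressin (Avp) and oxytocin (Oxt) had mean log2 signals between 11.90 and 12.38 in all 4 groups, and corticotropin-releasing hormone (Crh) had 9.14 in WKY PVN against 5.07 in WKY SON.

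Before scaling, the median signal of the arrays ranged from 35.9 to 46.5. A limma weight under 0.5 was received by 3 arrays, PVN SHR array 1 (0.397), PVN SHR array 4 (0.464) and SON WKY array 3 (0.322), whereas the other 16 arrays ranged from 0.605 to 1.80. PVN SHR array 1 had the lowest deposited median and PVN SHR array 4 the highest. SON WKY array 3 had the lowest mean correlation with the arrays of its own group, 0.929. Each is kept in the values given here, and the counts of calls and the named calls that were lost are also given without them. Markers of the meninges and of fibroblasts separated the nuclei, with array means between 5.33 and 5.64 in the PVN and between 7.57 and 8.96 in the SON, where SON SHR array 1 was highest.

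Averaged over the nuclei, 1229 of 31042 probe sets (3.96%) differed between the strains, 414 higher (1.33%) and 815 lower (2.63%) in SHR. Most of these changes were small. A total of 1047 called probe sets (3.37% of those tested, 85.2% of the calls) changed by less than 2-fold, 318 of them higher and 729 lower, and the median size of a called difference was 0.44, which is 1.35-fold. The smallest called difference was 0.12, beside a median standard error of 0.13 over all probe sets. At 2-fold or more there were 96 higher and 86 lower probe sets, so the excess of lower probe sets lay among the small changes. It also depended on how arrays were scaled, since 33.7% of the calls were higher in SHR with median scaling, 44.6% with quantile normalisation (630 of 1414) and 46.3% with the values as deposited (749 of 1618). Calls were more frequent among the probe sets above the median signal (6.28%; 272 higher and 703 lower) than among those below it (1.64%; 142 higher and 112 lower).

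PVN and SON were hybridised to separate arrays, so each nucleus offers a look at the differences found in the other. This look may not be independent, because the paper dissected both nuclei from the same brain sections. It does not say which rats gave each pool, so PVN and SON pools of a strain may share rats. The additive model treated all arrays as independent, which would then not hold. In the PVN alone 238 probe sets (0.767%) were called, and 207 of them (87.0%) differed in the same direction in the SON, against 56.4% of the probe sets not called. Of the 445 probe sets called in the SON alone (1.43%), 414 (93.0%) had the same direction in the PVN, against 56.1% of the others. Small changes did so about as often, with 109 of 123 PVN calls under 2-fold (88.6%) and 289 of 313 SON calls under 2-fold (92.3%). Differences were smaller in the other nucleus, which the choice of these probe sets by their values in the first nucleus favours by its construction. The PVN calls had a median size of 0.98 in the PVN and 0.70 in the SON, and the SON calls had 0.65 in the SON and 0.32 in the PVN. Of the 1229 probe sets called on average, 106 were called in both nuclei taken alone, 87 in the PVN only, 214 in the SON only, and 822 in neither. All 1229 had the same sign in both nuclei, which a test of the average favours by its construction. The strains did not overlap in either nucleus, with the same direction in both, for 298 probe sets (0.960%), and 294 of these were called, 125 higher and 169 lower. A strain by nucleus interaction was called for 11 probe sets (0.0354%), and 0 of them were among the average calls, of which 124 (10.1%) had an unadjusted interaction p under 0.05 against 6.52% of all probe sets.

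**Figure D1:**
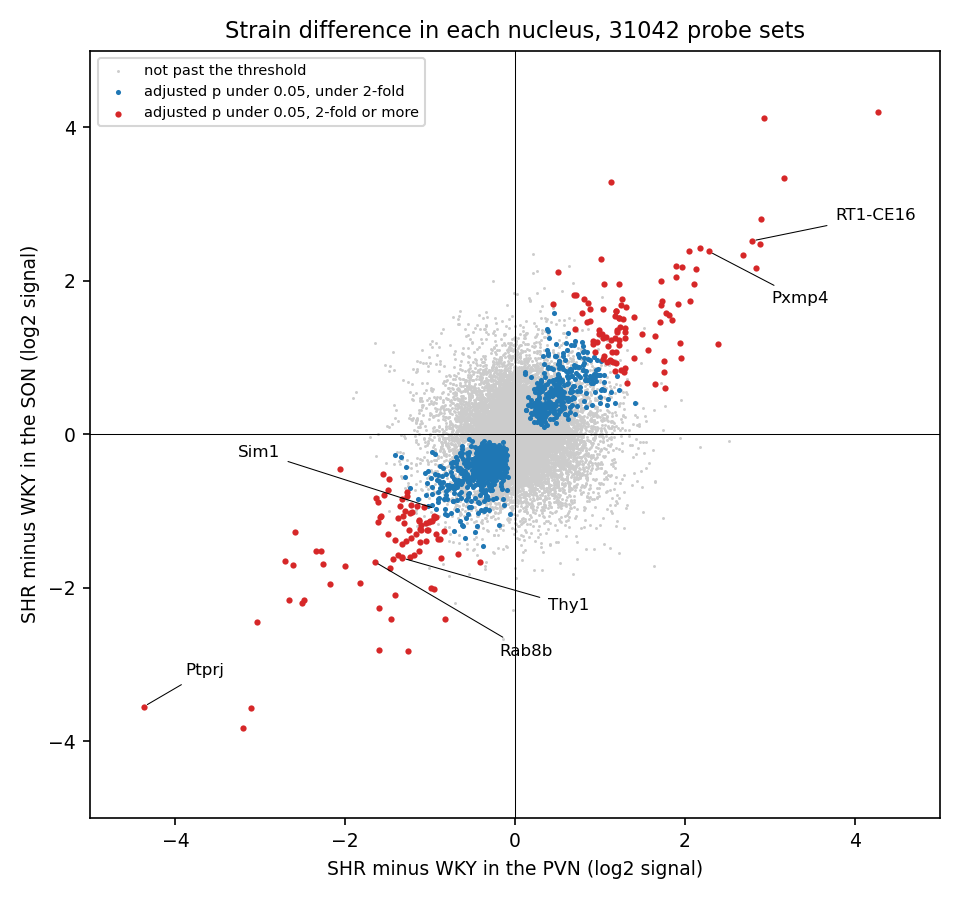
Strain difference (SHR minus WKY, log2 signal) in the PVN on the horizontal axis and in the SON on the vertical axis for the 31042 probe sets, with the 1047 calls under 2-fold in blue, the 182 calls of 2-fold or more in red and the other probe sets in grey. All 1229 calls lie in the lower left or upper right quadrant, and 729 of the 1047 blue points lie in the lower left.

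The number of calls rested on PVN SHR array 1. Without this array 2276 probe sets were called, 531 higher and 1745 lower, whereas leaving out any other array gave between 927 and 1273. The 2276 probe sets included 1219 of the 1229 called with all arrays (99.2%). Without the 3 arrays of low weight together, a fit chosen after the weights had been seen, 2106 probe sets were called, of which 1098 were among the 1229.

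**Figure D2:**
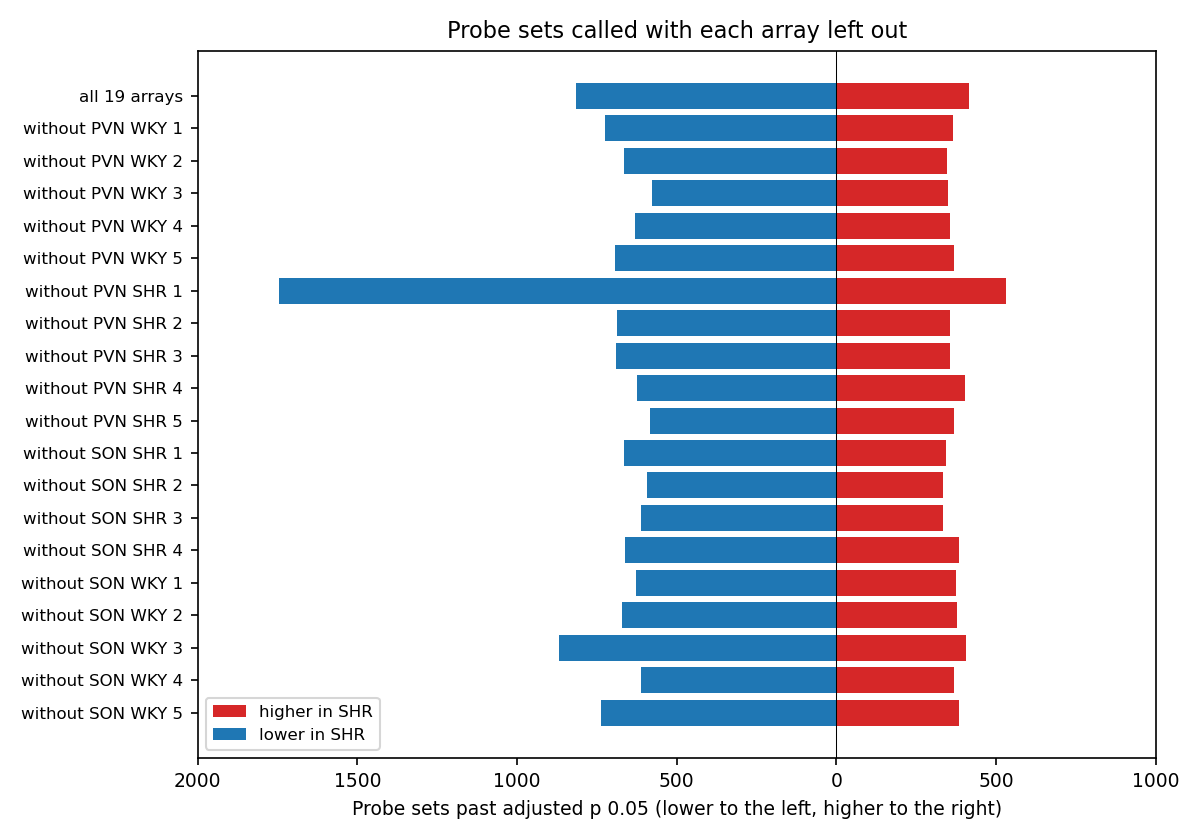
Number of called probe sets with all 19 arrays and with each array left out in turn, with probe sets higher in SHR to the right (red) and lower in SHR to the left (blue). Leaving out PVN SHR array 1 raised the lower probe sets from 815 to 1745, and 17 of the 19 fits had fewer calls than the 1229 with all arrays.

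Genes named for a change under 2-fold were chosen by the smallest p among calls without strain overlap in either nucleus. Their absence of overlap was thus set by the choice, and 294 of all 1229 calls (23.9%) had it. Sim1 was among the clearest of the lower genes under 2-fold. It encodes a bHLH-PAS transcription factor that the neurones of the PVN and SON need for their development. Its log2 signal was 6.99, 7.21, 7.13, 7.14 and 7.12 in WKY PVN and 6.07, 6.12, 6.34, 6.15 and 6.24 in SHR PVN. The SON values were 7.42, 7.42, 7.89, 7.73 and 7.09 in WKY and 6.20, 6.41, 6.69 and 6.85 in SHR. The strains did not overlap in either nucleus, and SHR was lower by a similar amount in both. Sim1 fell by 0.95 on average (SE 0.09, adjusted p = 4.39e-06; 1.94-fold), by 0.94 in the PVN and by 0.97 in the SON. It was the only one of the 23 measured transcription factors of hypothalamic identity that passed the test. This share of 4.35% was close to the 4.48% of all genes, counted by their brightest probe sets, and the list had a median difference of 0.02. The Sim1 partner Arnt2 had -0.19, Otp, which acts in the same neurones, had -0.10, and Pou3f2 had 0.00.

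Several genes of the regulated secretory pathway fell in SHR. Of 18 measured genes for prohormone processing and granule proteins, 8 fell and 0 rose, 10 did not pass, and the differences of all 18 were below 0, with a median of -0.25. Counted by the brightest probe set of each gene, 637 of 14217 genes were called (4.48%), 193 higher (1.36%) and 444 lower (3.12%), with a median difference of -0.03. Chromogranin B (Chgb), a granin that helps to form dense-core granules, fell by 0.59 (SE 0.07, adjusted p = 1.94e-05). Its log2 signal was 9.73, 9.64, 9.75, 9.76 and 9.77 in WKY PVN and 9.51, 9.21, 9.27, 9.0 and 9.19 in SHR PVN. Signals in the SON were 9.75, 9.66, 9.64, 9.85 and 9.64 in WKY and 8.96, 8.80, 9.26 and 9.06 in SHR. No SHR array reached the lowest WKY array of its nucleus, and PVN SHR array 1 was the highest of the SHR arrays.

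Resp18, a granule protein of endocrine and neuroendocrine cells, fell by 0.35 (SE 0.07, adjusted p = 4.9e-03). In the PVN its log2 signal was 11.98, 11.97, 11.94, 11.96 and 11.95 in WKY and 11.63, 11.52, 11.38, 11.54 and 11.46 in SHR, with no overlap. For the SON the values were 11.98, 11.89, 11.91, 12.40 and 12.11 in WKY and 11.82, 11.69, 11.89 and 11.86 in SHR, where the highest SHR array overlapped with WKY. Prohormone convertase 2 (Pcsk2), which cleaves prohormones, fell by 0.52 (SE 0.10), Vgf, a granin-like precursor of several peptides, by 0.44, chromogranin A (Chga) by 0.39, the granule membrane protein Ptprn by 0.37, and secretogranins Scg3 by 0.29 and Scg2 by 0.21. Carboxypeptidase E (Cpe) with -0.20 and the amidating enzyme Pam with -0.23 did not pass. The array means over the 18 genes lay between 9.76 and 9.95 in WKY PVN and between 9.40 and 9.87 in SHR PVN. They lay between 9.67 and 9.92 in WKY SON and between 9.41 and 9.50 in SHR SON. The SHR array with 9.87 was PVN SHR array 1, without which 14 of the 18 genes fell and the median was -0.31, whereas after quantile normalisation 5 fell, 17 of 18 were below 0 and the median was -0.10.

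Some neuronal markers fell as well. Of 25 measured markers 6 fell (24%, against 4.48% of all genes), 0 rose and 19 did not pass, and Scg2 stands in both lists. The median of the markers was -0.18 (-0.04 after quantile normalisation). Their array means ranged from 9.10 to 9.30 in WKY PVN, from 8.81 to 9.38 in SHR PVN, from 8.78 to 9.02 in WKY SON and from 8.61 to 8.79 in SHR SON. PVN SHR array 1 had the highest neuronal mean of all 19 arrays. Fewer neurones and less of these RNAs per neurone cannot be told apart in such samples, and the part of the neuronal content in the granule result was not tested. The markers of astrocytes (15 measured), oligodendrocytes (16), microglia and macrophages (17) and endothelium (15) had 0 calls each by limma, with 7, 3, 2 and 2 genes at an unadjusted p under 0.05 and medians of -0.12, -0.05, 0.14 and -0.07. The astrocyte median was 0.04 after quantile normalisation. Markers of ependyma and motile cilia (10 measured) had 0 calls by limma, with 3 at an unadjusted p under 0.05. Their array means lay between 7.36 and 7.55 in SHR PVN and between 6.78 and 7.29 in WKY PVN, without overlap. In the SON they lay between 4.66 and 4.86 in SHR and between 4.65 and 5.13 in WKY. Without PVN SHR array 1, 14 neuronal and 5 astrocyte markers fell.

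Thy1, a glycoprotein of the neuronal surface, differed more than the other neuronal markers. Its log2 signal was 9.17, 9.11, 9.50, 9.49 and 9.09 in WKY PVN and 7.98, 7.96, 8.03, 7.96 and 7.77 in SHR PVN. In the SON it was 9.53, 9.39, 9.26, 9.64 and 9.32 in WKY and 7.86, 8.14, 7.93 and 7.34 in SHR. The strains did not overlap in either nucleus, the average difference was -1.46 (SE 0.10, adjusted p = 1.97e-08), and a further probe set of Thy1 fell by 0.50 (adjusted p = 2.34e-04). Uchl1, a neuronal ubiquitin hydrolase, fell by 0.39 without overlap, neuron-specific enolase (Eno2) by 0.33, Stmn2 by 0.31 and Map1b by 0.28, while Tubb3 with -0.29 and Snap25 with -0.19 did not pass.

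Among 12 measured peptides of magnocellular neurones 4 fell and 0 rose (33.3%, against 4.48% of all genes), with a median of -0.18. Cholecystokinin (Cck), which oxytocin neurones co-express, had 8.84, 9.03, 9.43, 9.17 and 9.12 in WKY PVN and 8.24, 8.62, 8.46, 8.86 and 8.67 in SHR PVN. SON arrays had 8.81, 8.41, 8.76, 8.29 and 8.42 in WKY and 7.91, 7.96, 7.96 and 7.82 in SHR. The strains overlapped at 1 array in the PVN and not in the SON, and Cck fell by 0.59 on average (SE 0.09, adjusted p = 5.10e-04). Prodynorphin (Pdyn), the opioid precursor of vasopressin neurones, fell by 0.46 (adjusted p = 6.9e-03), and a further Pdyn probe set fell by 0.48. Cartpt, the precursor of the cocaine- and amphetamine-regulated transcript peptides, fell by 0.40 (adjusted p = 9.4e-03), but after quantile normalisation it had -0.19 and did not pass (adjusted p = 0.141). Neuromedin B (Nmb) fell by 0.52 (adjusted p = 0.0486), with -0.06 in the PVN and -1.04 in the SON, and it passed in 11 of 31 alternative fits, not in that without the 3 arrays of low weight (adjusted p = 0.0569).

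The hormones themselves did not pass. Avp had an average difference of -0.21 (SE 0.12, adjusted p = 0.408) and Oxt one of -0.15 (SE 0.12, adjusted p = 0.633), and after quantile normalisation their differences were 0.04 and 0.05. Urocortin (Ucn), a peptide of the corticotropin-releasing hormone family, differed between the nuclei. It had 4.71, 4.84, 5.02, 4.42 and 4.37 in WKY PVN and 4.67, 4.55, 4.39, 4.81 and 4.99 in SHR PVN, where the strains overlapped throughout. The SON values were 7.33, 7.26, 7.14, 7.57 and 7.52 in WKY and 5.13, 5.39, 5.57 and 5.88 in SHR, without overlap. Its average difference of -0.88 (SE 0.25) did not pass (adjusted p = 0.0595) but passed in 11 of 31 alternative fits, and the interaction of -1.88 did (adjusted p = 3.5e-03).

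Of 18 measured parvocellular and other hypothalamic neuropeptides 2 fell and 0 rose (11.1%, against 4.48% of all genes). The median was -0.16. Crh fell by 0.68 (SE 0.12, adjusted p = 2.1e-03), with -0.40 in the PVN, where the strains overlapped, and -0.99 in the SON, where the signal was much lower and the strains did not overlap. Thyrotropin-releasing hormone (Trh) fell by 0.54 (SE 0.13, adjusted p = 0.0211). Its differences were -0.40 in the PVN and -0.69 in the SON.

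The promoters of some of these genes hold the full cyclic AMP response element TGACGTCA, which is its own reverse complement. It was 1 of 10 motifs searched, on both strands, in the 250 bases before the RefSeq start of each gene (build GRCr8), where 1.59% of 33469 promoters hold it. Among the fallen granule genes with a listed promoter it was present in 2 of 7, Scg2 and Vgf, and among those not called in 0 of 10. Among the fallen magnocellular peptides it was present in 1 of 3, Cartpt, and among those not called in 1 of 7, Ucn. Among the parvocellular and other neuropeptides it was present in 0 of 1 fallen and 0 of 12 that were not called. These 4 promoters are printed 5′ to 3′ on the strand of the gene with the element in capitals, because they show which secretory genes share the letters and where they lie. A match is a description of the sequence and not of binding.
Scg2 (chr9:88256867-88257116, minus strand): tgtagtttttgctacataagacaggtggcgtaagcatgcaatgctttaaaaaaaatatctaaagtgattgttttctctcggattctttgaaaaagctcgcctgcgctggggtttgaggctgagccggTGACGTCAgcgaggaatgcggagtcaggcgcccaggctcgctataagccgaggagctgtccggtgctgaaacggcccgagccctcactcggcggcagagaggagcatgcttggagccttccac
Vgf (chr12:25277021-25277270, minus strand): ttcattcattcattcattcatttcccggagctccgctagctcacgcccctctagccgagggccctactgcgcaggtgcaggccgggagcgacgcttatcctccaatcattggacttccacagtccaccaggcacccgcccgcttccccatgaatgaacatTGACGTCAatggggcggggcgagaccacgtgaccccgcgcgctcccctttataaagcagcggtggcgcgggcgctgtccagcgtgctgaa
Cartpt (chr2:32991236-32991485, minus strand): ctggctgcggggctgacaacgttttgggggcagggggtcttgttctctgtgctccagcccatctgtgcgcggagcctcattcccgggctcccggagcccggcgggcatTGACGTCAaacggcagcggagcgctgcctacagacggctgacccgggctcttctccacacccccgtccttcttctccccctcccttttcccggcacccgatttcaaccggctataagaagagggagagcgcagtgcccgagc
Ucn (chr6:30957836-30958085, plus strand): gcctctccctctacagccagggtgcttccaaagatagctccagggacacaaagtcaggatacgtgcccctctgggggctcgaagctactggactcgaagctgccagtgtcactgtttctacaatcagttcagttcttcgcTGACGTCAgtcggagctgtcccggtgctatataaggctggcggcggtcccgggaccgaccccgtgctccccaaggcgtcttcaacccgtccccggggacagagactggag

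Other genes lower in SHR by less than 2-fold had roles in translation, transport and metabolism. Eif3c, a subunit of a translation initiation factor, had 9.49, 9.40, 9.62, 9.57 and 9.41 in WKY PVN and 8.96, 8.70, 8.47, 8.49 and 8.36 in SHR PVN. Signals in the SON were 9.71, 9.74, 9.54, 10.01 and 9.77 in WKY and 9.01, 8.78, 8.85 and 8.84 in SHR. The strains were well separated in both nuclei, and Eif3c fell by 0.89 (SE 0.07, adjusted p = 3.88e-07). Atp6v1b2, a subunit of the vacuolar proton pump that acidifies granules and endosomes, had 9.004, 8.86, 8.99, 8.79 and 8.93 in WKY PVN and 8.56, 8.54, 8.54, 8.26 and 8.48 in SHR PVN. For the SON the values were 8.76, 8.87, 8.71, 8.79 and 8.78 in WKY and 8.26, 8.30, 8.16 and 8.35 in SHR. Its change was only 1.39-fold, a difference of -0.48 (SE 0.04, adjusted p = 1.29e-06), and no array of one strain reached the other. The brighter probe set of Atp6v1b2 had -0.20 and did not pass (limma adjusted p = 0.182).

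Sec23b, a coat protein of vesicles that leave the endoplasmic reticulum, fell by 0.89, Cisd2, an iron-sulphur protein of the endoplasmic reticulum and mitochondria, by 0.84, and Polr3k, a subunit of RNA polymerase III, by 0.54. Noggin (Nog), which binds and blocks bone morphogenetic proteins, fell by 0.65, Retsat, a retinol saturase, by 0.76, Ttll1, a tubulin polyglutamylase, by 0.72, Adhfe1, a mitochondrial alcohol dehydrogenase, by 0.67 and chymosin (Cym), a protease, by 0.89. The adjusted p of these 8 genes lay between 3.38e-06 and 2.34e-05, and by the way they were chosen none overlapped between strains in either nucleus. Cym differed by -0.62 in the PVN and -1.19 in the SON, and Sec23b by -0.63 and -1.18, but their interactions did not pass (adjusted p = 0.344 and 0.294).

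Genes higher in SHR by less than 2-fold were led by Ankrd45, an ankyrin repeat protein. It had 7.12, 6.84, 6.79, 7.04 and 7.26 in WKY PVN and 7.71, 7.67, 7.73, 7.68 and 7.72 in SHR PVN. In the SON it had 6.37, 6.42, 6.18, 6.19 and 6.35 in WKY and 6.70, 7.10, 6.96 and 6.98 in SHR. Ankrd45 rose by 0.67 (SE 0.06, adjusted p = 2.18e-06), without overlap in either nucleus. Its other probe set, of similar signal, had 0.16 and did not pass (limma adjusted p = 0.48). Prps2, which makes phosphoribosyl pyrophosphate for nucleotide synthesis, rose by 0.62 (adjusted p = 5.91e-06), a dimmer probe set rose by 0.62, and its brightest probe set had 0.04 (adjusted p = 0.907).

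Atf6, a transcription factor that the endoplasmic reticulum releases when proteins misfold, had 6.70, 6.59, 6.75, 7.05 and 6.52 in WKY PVN and 7.89, 7.54, 7.43, 7.39 and 7.46 in SHR PVN. SON arrays had 7.05, 6.48, 6.65, 6.81 and 6.49 in WKY and 7.58, 7.33, 7.48 and 7.46 in SHR. Atf6 rose by 0.80 (SE 0.09, adjusted p = 1.45e-05) on this probe set without overlap, while its other probe set had -0.11 (adjusted p = 0.88). In the list of 26 genes for folding and stress in the endoplasmic reticulum it was the only one to rise. Pdia3, the chaperone Hsp90b1 and Atf4 fell by 0.34, 0.22 and 0.22. The share of the list that was called was 15.4%, against 4.48% of all genes. The chaperone Hspa5, a target of Atf6, had -0.19 and did not pass. The median of the list was -0.14 (-0.06 after quantile normalisation), and the 3 falls each passed in 12 to 16 of 31 alternative fits. Without PVN SHR array 1, 10 of the 26 genes fell.

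Gstm1, a glutathione transferase, had 9.05, 9.01, 9.50, 9.25 and 9.31 in WKY PVN and 10.01, 9.65, 9.83, 9.53 and 9.74 in SHR PVN. The SON values were 9.11, 8.98, 9.06, 9.12 and 8.85 in WKY and 9.68, 9.64, 9.58 and 9.61 in SHR. It rose by 0.57 (SE 0.07, adjusted p = 4.06e-05) without overlap, although the lowest SHR array of the PVN was close to the highest WKY array. Its relative Gstm7, whose sequence is similar, fell by 0.44 (adjusted p = 1.0e-03), glutathione reductase (Gsr) fell by 0.49, thioredoxin reductase (Txnrd1) by 0.24 and peroxiredoxin 2 (Prdx2) by 0.26. In all, 1 of the 34 measured glutathione and antioxidant genes rose and 4 fell (14.7% called, against 4.48% of all genes). The median was -0.11, and Prdx2 passed in 14 of 31 alternative fits. Without PVN SHR array 1, 8 of the 34 genes fell.

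The other higher genes of this kind were the zinc finger genes Zfp317 (0.51) and Zbtb20 (0.82), Tapt1 (0.86), the fibronectin domain gene Fndc3b (0.65), the pseudogene Rrs1-ps9 (0.89), Pdlim3 of the actin cytoskeleton (0.49), P3h4, which takes part in collagen modification (0.92), and the DNA helicase Rtel1 (0.90). Their adjusted p lay between 1.22e-05 and 4.86e-05. A brighter probe set of Fndc3b had 0.04 and the brightest of Zbtb20 had 0.09, and neither passed. Of the 24 genes named for a change under 2-fold 12 had further probe sets, 23 in all, and 19 of the 23 pointed the same way. Further probe sets of 6 genes were called in the same direction. Zbtb20 was the exception, since 1 further probe set rose by 0.54 (adjusted p = 0.011) and another fell by 0.89 (adjusted p = 2.35e-04).

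**Figure D3:**
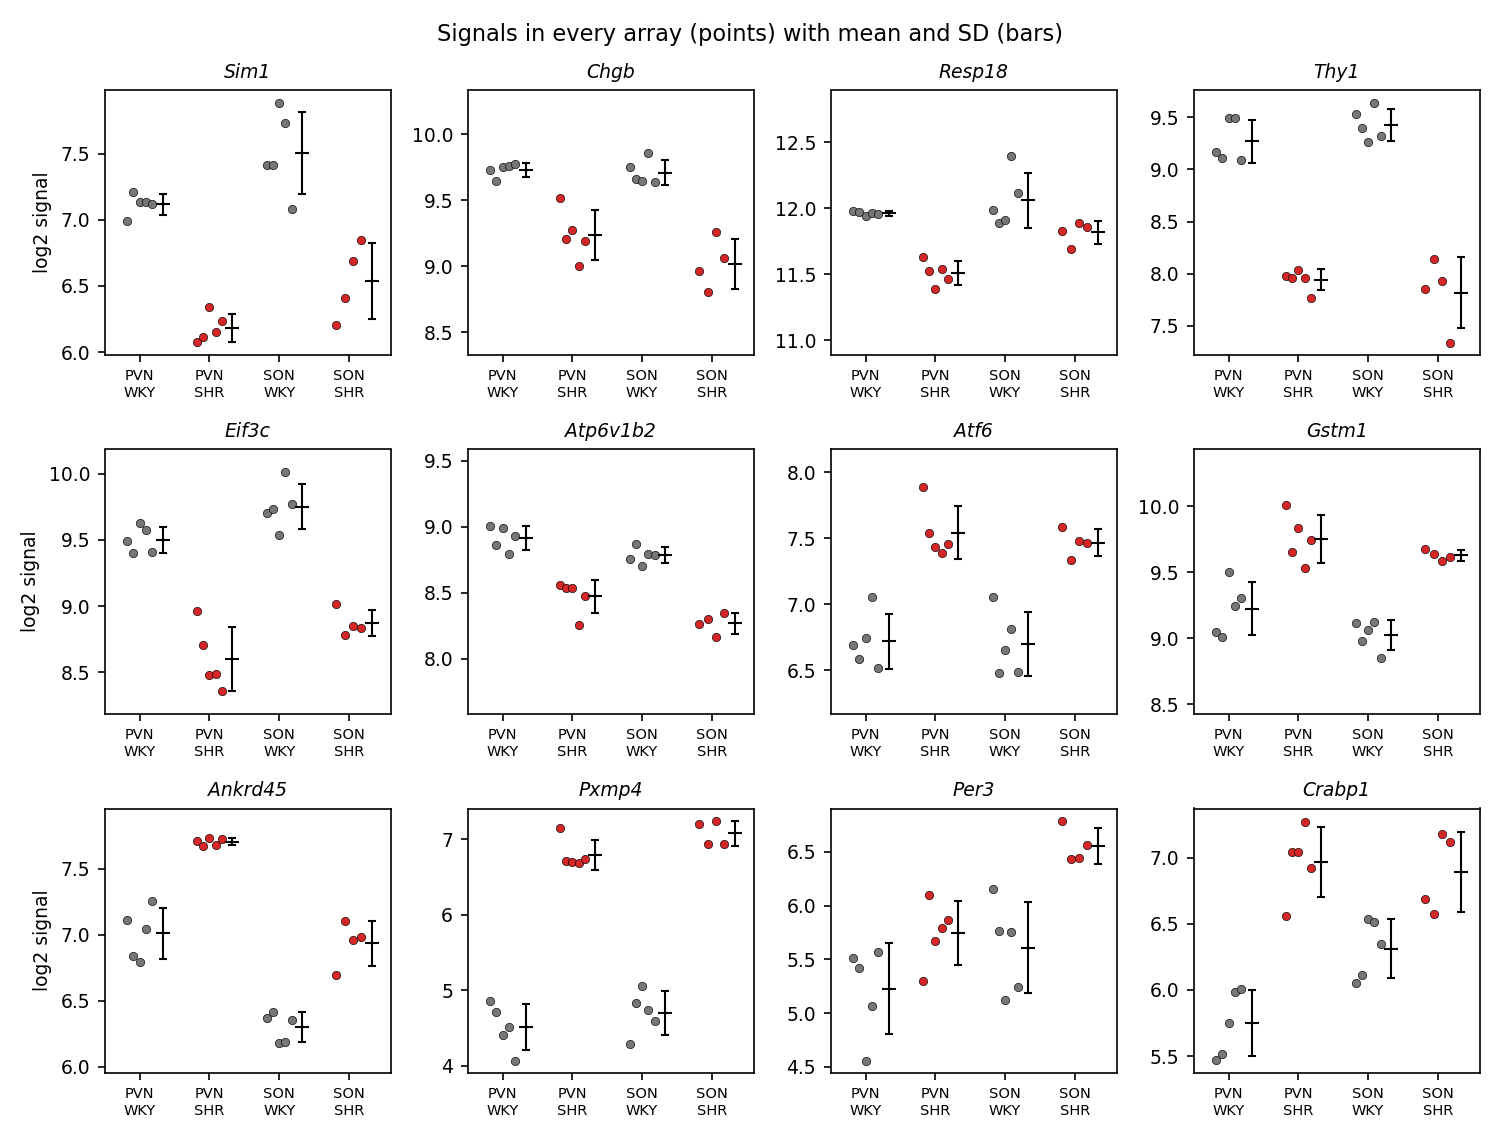
Log2 signal of 12 genes in every array (points; grey for WKY, red for SHR) with the mean and SD of each group (bars), in WKY and SHR PVN (n = 5 each), WKY SON (n = 5) and SHR SON (n = 4). Sim1, Chgb, Thy1, Eif3c and Atp6v1b2 were lower in SHR without overlap, Resp18 overlapped in the SON, and Atf6, Gstm1, Ankrd45, Pxmp4 and Crabp1 were higher without overlap, while Per3 overlapped in the PVN; vertical scales differ.

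Immune genes changed in both directions. Of 19 measured genes of class I antigen presentation 2 rose and 3 fell (26.3% called, against 4.48% of all genes). The immunoproteasome subunit Psmb8 had 5.18, 5.37, 5.47, 5.26 and 5.10 in WKY PVN and 6.43, 6.10, 6.03, 5.91 and 5.58 in SHR PVN. Signals in the SON were 5.93, 5.74, 5.44, 5.61 and 6.22 in WKY and 7.18, 6.69, 6.67 and 6.78 in SHR. It rose by 0.88 without overlap (SE 0.12, adjusted p = 1.64e-04), while its partner Psmb9 had -0.02. RT1-CE16 rose by 2.66, and RT1-CE5 and RT1-CE12 fell by 0.71 and 0.41, on probe sets that can bind several of these near-identical class I genes, so that their values are uncertain. Of 8 measured class II genes 3 fell and 0 rose (37.5% called). RT1-Bb fell by 1.45, and the peptide exchange subunits RT1-DMa by 0.38 and RT1-DMb by 0.31. The RT1-Bb probe set was dim, with 1 SHR PVN array at the floor of log2 1.91. A further, dimmer RT1-Bb probe set pointed the other way with 0.55 and did not pass. Cd74, the invariant chain, had 0.27 and RT1-Da 0.14, and neither passed. RT1-DMb had -0.54 in the PVN and -0.06 in the SON.

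Of 21 measured interferon response genes 3 rose and 0 fell (14.3% called, against 4.48% of all genes). The differences of 19 were above 0, with a median of 0.11 (0.14 after quantile normalisation). Gbp2, a guanylate-binding GTPase, rose by 0.36 (SE 0.07, adjusted p = 9.0e-03), and the antiviral membrane proteins Ifitm1 and Ifitm3 rose by 0.62 (adjusted p = 0.017) and 0.46 (adjusted p = 0.0449). For Ifitm3 the log2 signal was 7.19, 7.32, 7.48, 7.25 and 7.29 in WKY PVN and 7.43, 7.81, 7.82, 7.34 and 7.53 in SHR PVN. For the SON the values were 8.76, 8.46, 8.11, 8.75 and 8.66 in WKY and 9.78, 9.15, 9.15 and 8.74 in SHR. The strains overlapped in both nuclei, the highest value was that of SON SHR array 1, which was also highest for the meningeal markers, and Ifitm3 passed in 13 of 31 alternative fits. Of 27 measured markers of the meninges and fibroblasts 2 rose (7.41%, against 4.48% of all genes), with a median of 0.33. These were the proteoglycans Bgn (0.46) and Dcn (0.69). Dcn passed in 11 of 31 alternative fits, and without the 3 arrays of low weight it had 0.58 (adjusted p = 0.0845). The part of meningeal content in the interferon result was not tested. Mx1 with 0.17, Isg15 with 0.21 and Irf7 with 0.12 did not pass. Outside the list, the interferon-inducible genes Ifi44 and Ifi44l fell by 0.80 (adjusted p = 2.7e-03) and 0.62 (adjusted p = 0.018).

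The interferon-stimulated response element, searched on both strands as 2 copies of GAAA with 2 bases of any kind between them, was present in 3.41% of the 33469 promoters. It was present in both risen genes of the list with a listed promoter and in 6 of the 13 that did not pass. The 2 promoters are shown with the element in capitals, because these are the members that rose, and in Gbp2 it lies on the opposite strand.
Gbp2 (chr2:234005477-234005726, plus strand): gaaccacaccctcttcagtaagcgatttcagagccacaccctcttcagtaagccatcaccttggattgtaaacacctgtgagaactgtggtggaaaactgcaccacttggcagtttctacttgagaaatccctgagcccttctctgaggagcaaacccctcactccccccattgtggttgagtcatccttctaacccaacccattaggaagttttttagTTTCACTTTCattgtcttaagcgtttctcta
Ifitm3 (chr1:205541759-205542008, minus strand): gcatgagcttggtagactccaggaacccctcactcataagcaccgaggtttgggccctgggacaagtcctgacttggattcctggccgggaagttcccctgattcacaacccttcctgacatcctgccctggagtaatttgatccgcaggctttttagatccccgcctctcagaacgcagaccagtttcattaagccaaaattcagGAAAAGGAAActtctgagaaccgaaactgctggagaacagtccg

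Clock genes were among those that rose. Of 18 measured genes 3 rose and 1 fell (22.2% called, against 4.48% of all genes), with a median of 0.13. Per3, a component of the negative arm of the clock, had 5.52, 5.42, 4.56, 5.07 and 5.57 in WKY PVN and 5.29, 6.10, 5.67, 5.80 and 5.87 in SHR PVN. In the SON it had 6.16, 5.76, 5.12, 5.76 and 5.25 in WKY and 6.79, 6.43, 6.45 and 6.56 in SHR. Per3 rose by 0.72 (SE 0.16, adjusted p = 0.0149), with overlap in the PVN at PVN SHR array 1. Per2 rose by 0.27 (adjusted p = 0.0242) and Nr1d2, a repressor of Bmal1, by 0.37 (adjusted p = 0.0332), while Nfil3, a repressor that opposes Dbp, fell by 0.66 (adjusted p = 8.1e-03). Nfil3 had -0.3635 in the PVN, where the strains overlapped, and -1.0034 in the SON, where they did not. Its interaction did not pass (limma adjusted p = 0.632). Per1 with 0.56, Dbp with 0.37, Nr1d1 with 0.30, Clock with -0.10 and Bmal1 with -0.12 did not pass. The other probe sets of Per2 and Per3 had -0.18 and -0.22. Without the 3 arrays of low weight 2 rose and 1 fell, Per2 had 0.22 and did not pass (adjusted p = 0.0784), and the median was -0.02.

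Of 30 measured potassium channel genes 6 fell (20%, against 4.48% of all genes) and 0 rose, with a median of -0.18 (-0.15 after quantile normalisation). Kcnip3, a calcium-binding partner of A-type channels, had 7.53, 7.65, 7.93, 7.59 and 7.74 in WKY PVN and 7.26, 6.76, 6.66, 5.71 and 6.33 in SHR PVN. SON arrays had 7.15, 7.52, 6.73, 6.88 and 6.81 in WKY and 6.12, 6.11, 6.19 and 6.30 in SHR. It fell by 1.00 without overlap (SE 0.15, adjusted p = 6.51e-04). The sodium-activated channel Kcnt1 fell by 0.55 without overlap (adjusted p = 1.2e-03), the delayed rectifier Kcna2 by 0.55, the large-conductance calcium-activated channel Kcnma1 by 0.37, Kcnd3 by 0.33 and Kcnc2 by 0.26. Further probe sets of Kcnip3, Kcnt1, Kcna2 and Kcnma1 did not pass, and Kcnd3 had called probe sets in opposite directions. Among 29 sodium, calcium, HCN and TRP channel genes 0 were called by limma (5 at an unadjusted p under 0.05). Among 31 receptors for GABA, glycine and glutamate 2 fell, Gabbr1 by 0.24 and Glrb by 0.40, a share of 6.45% near the 4.48% of all genes. Gabbr1 had -0.08 after quantile normalisation and did not pass. Its further probe sets had between -0.23 and 0.62 and did not pass, while a further Glrb probe set fell by 0.41.

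Of 23 measured genes of the insulin receptor and PI3-kinase pathway 4 fell and 0 rose (17.4%, against 4.48% of all genes). The median was -0.12. Pik3r1, the regulatory subunit of PI3-kinase, had 6.60, 6.53, 6.78, 6.67 and 6.73 in WKY PVN and 5.30, 5.74, 6.25, 6.06 and 5.89 in SHR PVN. The SON values were 6.74, 6.76, 6.46, 6.62 and 6.80 in WKY and 6.48, 6.04, 6.02 and 6.09 in SHR. It fell by 0.68 (SE 0.11, adjusted p = 7.20e-04) with an overlap of 1 SHR array in the SON. The insulin receptor (Insr) fell by 0.64 (adjusted p = 8.9e-03), the type 1 insulin-like growth factor receptor (Igf1r) by 0.27 and the adaptor Grb10 by 0.25. Grb10 passed in 15 of 31 alternative fits, and without the 3 arrays of low weight it had -0.24 (adjusted p = 0.0668). Further probe sets of Insr, Igf1r and Grb10 had differences between 0.02 and 0.14 and did not pass.

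In the renin-angiotensin system 1 of 12 measured genes rose and 1 fell (16.7% called, against 4.48% of all genes). Agtrap, an adaptor that promotes internalisation of the type 1 angiotensin receptor, rose by 2.52 on 1 probe set (adjusted p = 8.23e-08) and by 1.03 on the brighter probe set (adjusted p = 0.0338), without overlap on either. The brighter one had 0.44 in the PVN and 1.70 in the SON, passed in 21 of 31 alternative fits, and had 1.03 without the 3 arrays of low weight (adjusted p = 0.0536). Angiotensin-converting enzyme (Ace), which makes angiotensin II, had 5.52, 5.78, 5.64, 5.65 and 5.35 in WKY PVN and 5.50, 4.73, 4.41, 5.21 and 4.90 in SHR PVN. Signals in the SON were 6.16, 6.17, 6.06, 5.77 and 6.33 in WKY and 5.42, 5.24, 5.48 and 5.24 in SHR. Ace fell by 0.69 (SE 0.12, adjusted p = 1.8e-03), with overlap in the PVN at PVN SHR array 1, and its other, dimmer probe set had 0.05. Of 16 retinoic acid genes 2 rose (12.5%), both without overlap. These were the dehydrogenase Aldh1a1 (1.24, adjusted p = 1.62e-04) and the binding protein Crabp1 (0.92, adjusted p = 4.22e-04).

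The lists of abundant cellular machinery differed in their share of calls. This was 12.2% for the Rab, sorting nexin and Vps genes, against 4.48% of all genes. For heat shock proteins and chaperones it was 5.88%, for respiratory chain subunits 5.13% and for proteasome subunits 4%, near the share of all genes. Of 39 measured respiratory chain subunits 2 fell (Atp5pb by 0.22 and Sdha by 0.29), and the differences of 34 were below 0, but after quantile normalisation 22 of the 39 were above 0. Of 24 ribosomal proteins 0 were called by limma (2 at an unadjusted p under 0.05), and the median was -0.09 with median scaling and 0.07 after quantile normalisation. Of 25 proteasome subunits 1 fell (Psma1 by 0.27), of 44 splicing and RNA-binding proteins 0 were called (6 at an unadjusted p under 0.05), of 17 heat shock proteins and chaperones 1 fell (Hsp90ab1 by 0.33), and of 41 Rab, sorting nexin and Vps genes 2 rose and 3 fell. Of 19 immediate early genes 0 were called by limma (6 at an unadjusted p under 0.05), with a median of -0.20. Several of these counts rested on PVN SHR array 1, without which 11 respiratory chain subunits, 4 proteasome subunits, 4 heat shock proteins and chaperones, and 6 Rab, sorting nexin and Vps genes fell.

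**Figure D4:**
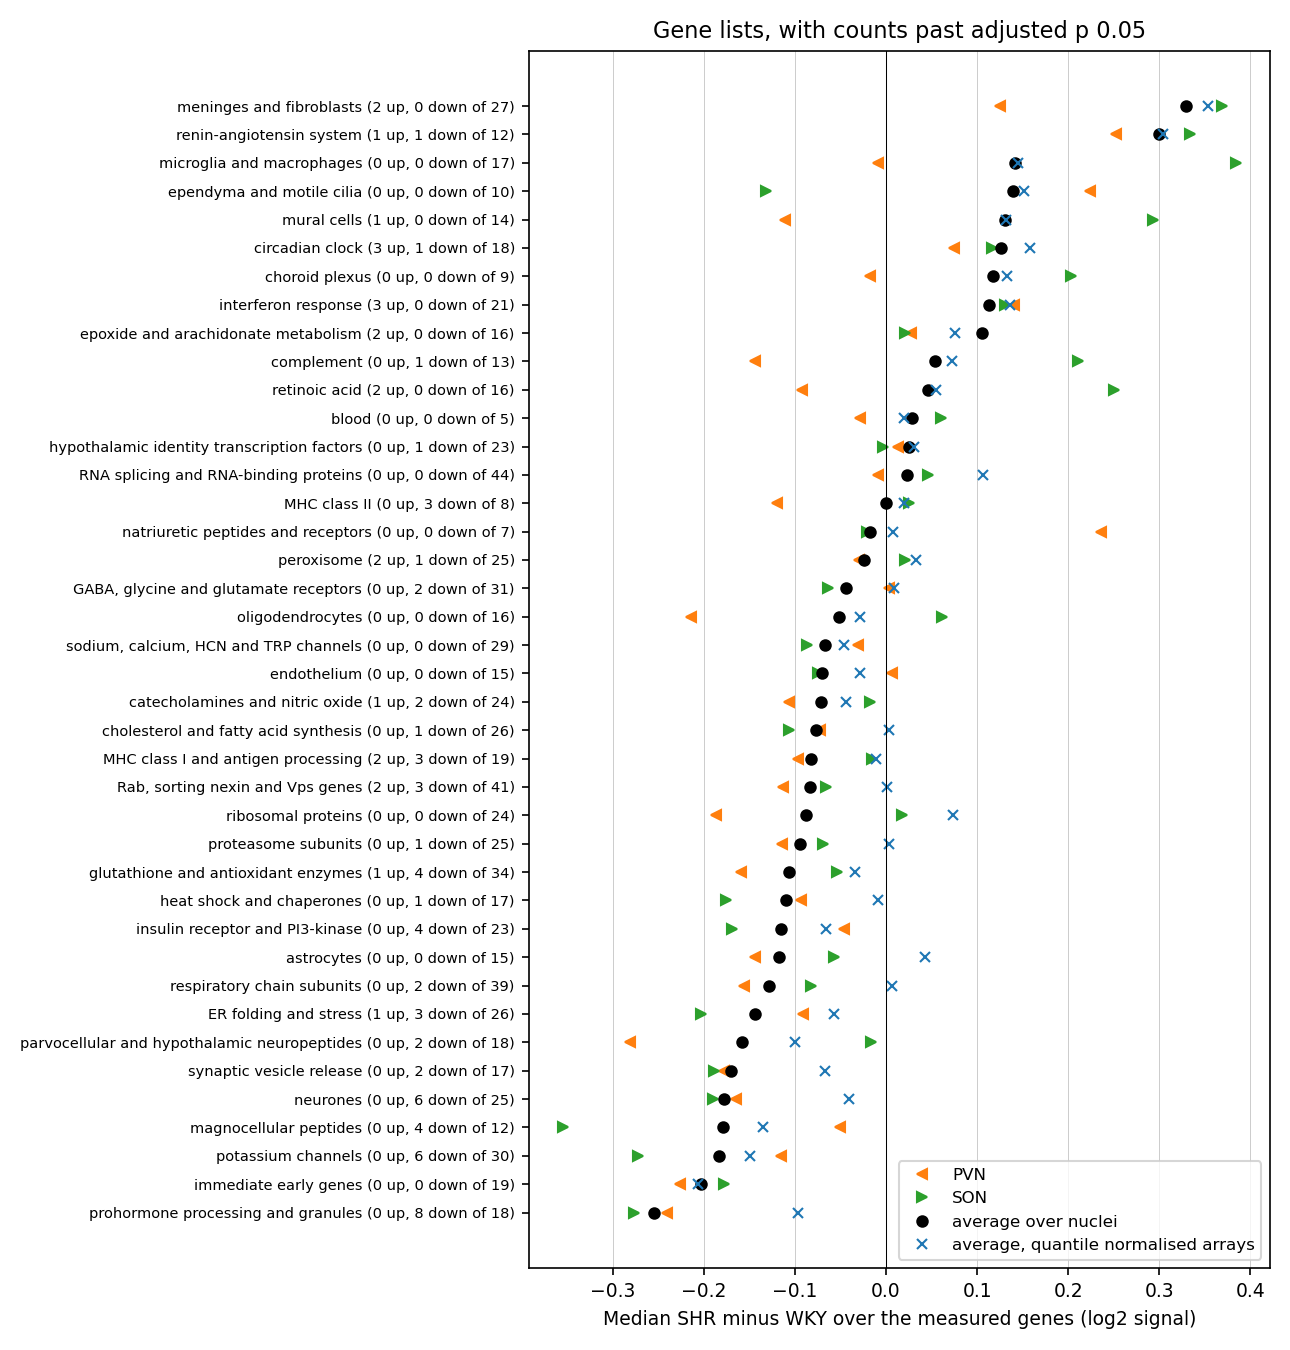
Median strain difference (SHR minus WKY, log2 signal) over the measured genes of each of 40 lists, in the PVN (orange), in the SON (green), on average (black) and on average after quantile normalisation (blue crosses), with the calls in each direction beside the name. The granule list has the lowest average at -0.25 with 8 of 18 genes fallen, whereas the parvocellular list is lower in the PVN (-0.28), the magnocellular list in the SON (-0.35) and the immediate early genes after quantile normalisation (-0.21, against -0.10 for the granule list).

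Genes that changed by 2-fold or more were chosen among those without overlap in either nucleus, each on its probe set with the smallest p. Those with the largest rises were RGD1309362 (3.49), the epoxide hydrolase Ephx2 (2.70), RT1-CE16 (2.66), Agtrap (2.52), the peroxisomal membrane protein Pxmp4 (2.33) and the nucleoside kinase Dguok (2.21). Those with the largest falls were the phosphatase Ptprj (-3.99), the mitochondrial carrier Slc25a27 (-3.33), RT1-CE5 (-1.91), Vps13c (-1.88), the helicase Ddx42 (-1.87) and the GTPase Rab8b (-1.66). Rab8b had 6.83, 6.90, 6.78, 6.82 and 6.88 in WKY PVN and 5.24, 5.18, 5.39, 4.79 and 5.34 in SHR PVN. For the SON the values were 6.74, 6.81, 6.86, 6.61 and 6.83 in WKY and 5.12, 5.10, 5.26 and 4.96 in SHR. Its difference was -1.65 in the PVN and -1.66 in the SON, and the brighter probe set of Rab8b fell by 2.36. Larger differences on a further probe set were also found for RT1-CE5 (-1.99) and Pxmp4 (2.52). Brighter probe sets of Ptprj (-0.14), Slc25a27 (-0.003 and -0.13), Ddx42 (-0.07) and Dguok (0.40) had much smaller differences and did not pass. For these genes the large change was therefore seen on 1 of their probe sets only. The size depended on the floor of log2 1.91 where arrays lay at it. In SHR these were 7 of 9 arrays for Ptprj, 6 of 9 for Slc25a27 and all 4 SON arrays for RT1-CE5, and in WKY 9 of 10 for Dguok and 4 of 10 for RGD1309362. With the floor at the 25th percentile Ptprj fell by 2.10, Slc25a27 fell by 1.55 and RT1-CE5 fell by 0.99, while Dguok rose by 0.55 and RGD1309362 by 2.30, so that Dguok and RT1-CE5 changed by less than 2-fold. Vps13c, with 1 SHR array at the floor, fell by 1.28.

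Different probe sets of a gene did not always give the same answer. Among 4525 genes with several probe sets, 403 had at least 1 call and 57 had 2 or more. All probe sets of a gene pointed the same way for 233 of the 403 (57.8%), against 50.4% of all 4525 genes. Calls in opposite directions were found for 10 genes, among them Zbtb20, the cell adhesion gene Nrcam, neuregulin 1 (Nrg1), Kcnd3 and the ubiquitin hydrolase Usp9x, which were named after their values had been seen.

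Called genes lay near each other in the genome more often than other genes, which is given as a description with no test. Of 814 called genes placed in the order of the reference, 50.7% had at least 1 called gene among the 5 on each side, against 41.7% of the genes not called. At least 3 called neighbours were found for 36 called genes (4.42%), against 2.52% of the others. The share was similar for genes called under 2-fold (50.4%) and at 2-fold or more (53.6%). With their neighbours the 36 genes formed 16 runs of 71 genes, which are named here because of their values. The genes of a run seldom moved together, since 3 runs were lower throughout, 1 was higher throughout and 12 were mixed.

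The longest run lay in the major histocompatibility complex. It held RT1-Bb (-1.45), Psmb8 (0.88), RT1-DMb (-0.31), RT1-DMa (-0.38), the zinc transporter Slc39a7 (-0.32), RT1-A3 (0.60), the trafficking gene Vps52 (0.51) and Wdr46 (-0.29). A further run held Sema3e (-0.55), Sema3d (0.97), the carnitine acyltransferase Crot (-0.62), the phospholipid transporter Abcb4 (-0.55), Adam22 (-0.40) and Cfap69 (0.52). Retsat (-0.76), named above, stood beside Tgoln2 (-0.54), Elmod3 (0.56) and Capg (0.38). RGD1309362 (3.49) stood beside Ifgga2l1 (0.75), Minar2 (-0.56) and Isoc1 (0.22). The granule genes Ptprn (-0.37) and Resp18 (-0.35) are neighbours, and with Gmppa (-0.50) and Chpf (-0.41) they formed a run that was lower throughout. Mfsd11 (-0.39), Septin9 (-0.62) and Tnrc6c (-0.46) formed another with LOC100912002 (-0.39).

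**Figure D5:**
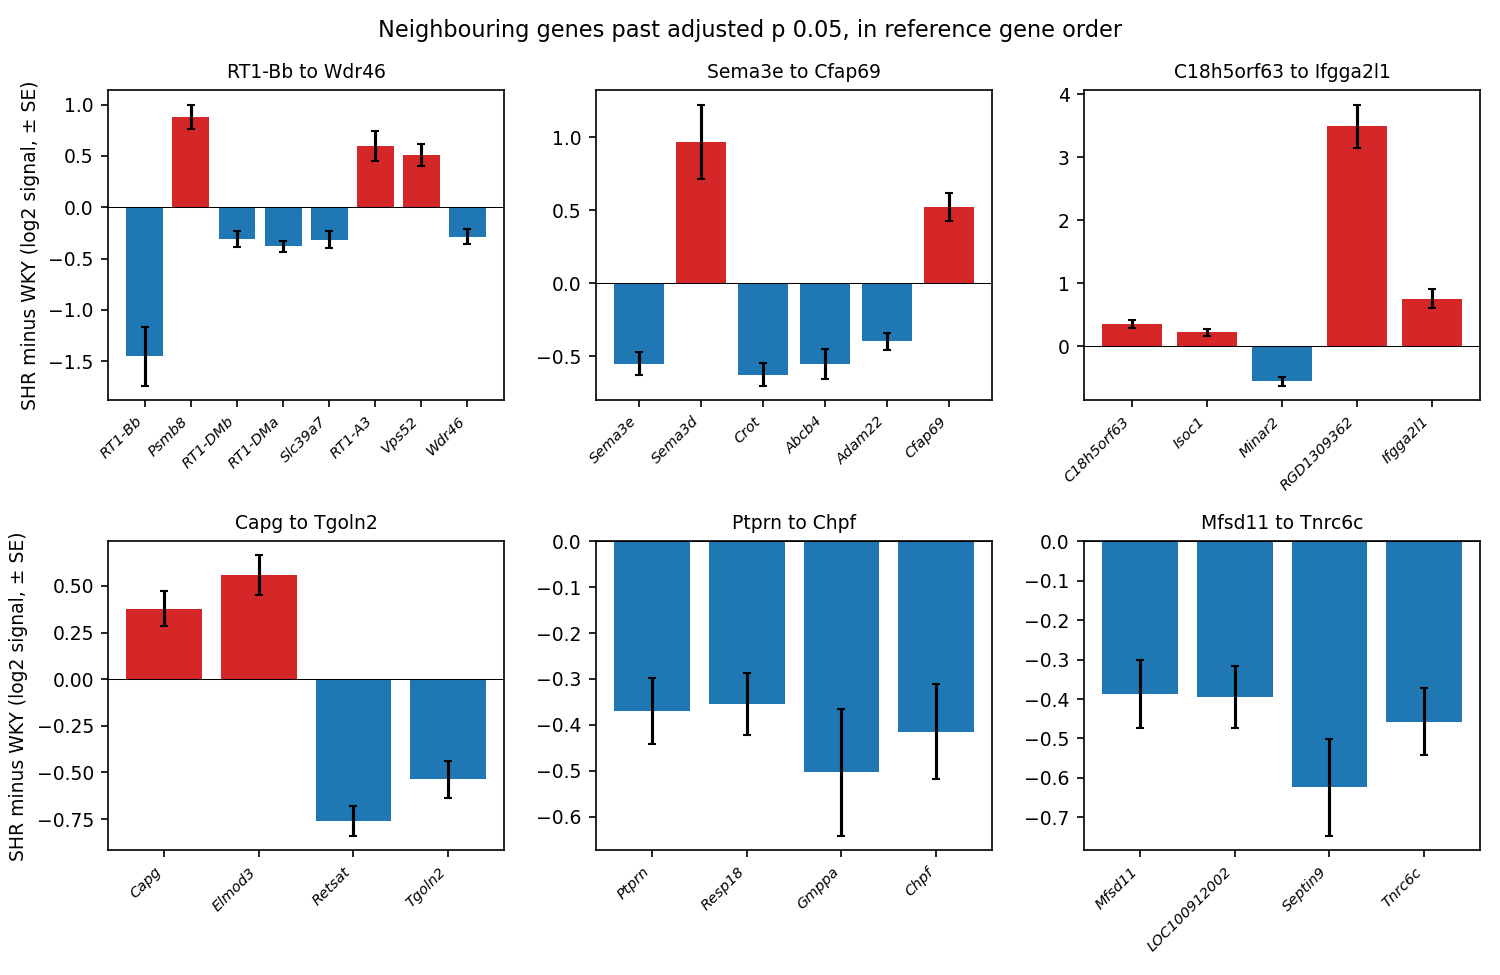
Average strain difference (SHR minus WKY, log2 signal, bars with SE) of called genes in 6 of the 16 runs, in the order of the reference genome; red bars are higher and blue bars lower in SHR. In 4 of the panels the directions are mixed, and the runs from Ptprn to Chpf and from Mfsd11 to Tnrc6c are lower throughout.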

How the data were processed

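RNA of pooled PVN or SON was hybridised to 19 Affymetrix rat expression arrays. The deposited values are MAS 5.0 signal intensities, which the authors computed per array, with no genome build given in the sources used here. Detection calls were not used here, and a further SHR SON array was not analysed here. All 19 columns were mapped by their names, and 0 were left unmapped. After removal of 57 control probe sets, 31042 remained. Each array was scaled to the common median, values under the 10th percentile (signal 3.75, log2 1.91) were set to it, and log2 was taken. The additive model of strain and nucleus was fitted with limma 3.58.1 (R 4.3.3, lmFit and eBayes with an intensity trend), two-sided, with Benjamini-Hochberg adjustment over all probe sets, and tested on simulated data. The number of arrays limits the precision.

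Of the probe sets 20826 had a single gene symbol, 436 several and 9780 none. A gene in a list stands for its brightest probe set, and 828 of 943 list entries were matched. Named genes were, among calls with a single symbol and no strain overlap in either nucleus and with 1 probe set per gene (that with the smallest p), the 12 higher and 12 lower under 2-fold with the smallest p and the 6 largest rises and falls of 2-fold or more. Added were up to 4 called members of each list and 6 genes of interest, and other list members are named to describe their list. Members, lists and tests were chosen with earlier results of these data known. Alternatives were the scaling, the floor, an offset, a filter on low signals, the variance model, array weights, a replicate block, single nuclei, and each array left out. Leaving out together the 3 arrays of low weight was chosen after seeing the data.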

Additional observations from a re-analysis of the deposited data

Results flagged for a closer look

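Urocortin (Ucn) differed in its strain effect between the nuclei, with an interaction of -1.88 (SON minus PVN, limma adjusted p = 3.5e-03). In 162 groups of 4 or 5 arrays of the genes named for their size or p or for the study's interest, 19 arrays lay far from the others of their group by Dixon's criterion, which chance meets in about 1 in 20 groups. In the PVN of WKY these were array 3 for Zbtb20 (log2 signal 6.30), Polr3k (9.73), Sec23b (9.04) and Ephx2 (1.91), array 1 for Rrs1-ps9 (5.82) and array 4 for Agtrap (2.33). In the PVN of SHR they were array 1 for Rrs1-ps9 (7.65) and Pxmp4 (7.14), array 4 for Atp6v1b2 (8.26), array 5 for Dguok (2.17), and array 2 for Ptprj (2.30) and Slc25a27 (3.31). In the SON of WKY they were array 2 for Rrs1-ps9 (5.70), array 1 for Dguok (3.18) and array 5 for RT1-CE5 (2.84). In the SON of SHR they were array 4 for Fndc3b (6.74), array 2 for Polr3k (8.95), and array 3 for Ptprj (2.20) and Slc25a27 (2.08). For Ptprj, Slc25a27 and Dguok most other arrays of the strain with the low signal were at the floor.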

How the results depend on the processing

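The count of 1229 called probe sets was 2147 with array weights, 2106 without the 3 arrays of low weight, 238 in the PVN alone and 445 in the SON alone, and it ranged from 927 to 2276 with 1 array left out. Calls under 2-fold (1047) were 1930, 1904, 123 and 313 under these settings and ranged from 760 to 2063. Calls without overlap (294) were 773 without the 3 arrays and 445 in the SON alone, and ranged from 306 to 544. The 11 interactions became 33 after quantile normalisation, 22 with values as deposited, 24 with the higher floor and 6 with the replicate block, and ranged from 6 to 16. The cause was not tested. With the replicate number as a fixed block, which also ties WKY to SHR arrays, there were 1022 calls. With a random block of arrays of the same strain and number there were 1225 calls, and the block correlation was 0.0022. Deviations of arrays with the same number correlated between -0.103 and 0.112 over all pairs of groups. For PVN and SON arrays of 1 strain they correlated between -0.0336 and -8e-04 in WKY and between 0.0237 and 0.1123 in SHR. Taken over all probe sets, these correlations cannot settle whether arrays with the same number hold nuclei of the same rats. Other scalings, floors, filters and variance models gave between 1143 and 1618 calls. Avp and Oxt changed sign after quantile normalisation (0.0367 and 0.0516) and Ucn in the PVN alone (0.0101). Of 65 list members named by the rule 36 passed in every alternative with both nuclei, and none of the 65 changed sign in them. After quantile normalisation 14 calls of genes named by the rule did not pass, among them Trh, Map1b, Cartpt, Txnrd1, Gabbr1, Hsp90ab1, RT1-DMb, Atp5pb, Grb10, Pdia3, Hsp90b1 and Atf4, and without the 3 arrays of low weight 6 did not. Of the 31 alternatives with both nuclei, Sdha passed in 12, RT1-DMb in 18, Glrb in 19, Atp5pb in 20, Nr1d2 in 22 and Ass1 in 27.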

Other observations

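Of 17 measured genes of synaptic vesicle release 2 fell (11.8%, against 4.48% of all genes), and 6 fell without PVN SHR array 1. The 2 were the vesicle fusion protein Vamp2 (-0.41, adjusted p = 0.0187) and Syt4, a synaptotagmin of dense-core granules (-0.29, adjusted p = 0.0233). Of 24 genes for catecholamines and nitric oxide 1 rose and 2 fell (12.5% called, against 4.48% of all genes). Qdpr, which regenerates tetrahydrobiopterin, fell by 0.43 (adjusted p = 3.0e-03). Ass1, which supplies arginine, fell by 0.47 (adjusted p = 0.0259), with -0.14 in the PVN, where the strains overlapped, and -0.84 in the SON. Its interaction did not pass (limma adjusted p = 0.294). Monoamine oxidase A (Maoa) rose by 0.19 (adjusted p = 0.0457) and passed in 11 of 31 alternative fits.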
